A study of Rattus norvegicus with 50 samples.

Results

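The comparison described here sets the livers of rats given both nevirapine and galactosamine, taken 48 h after the galactosamine injection, against the livers of rats given nevirapine alone and labelled 48 h. All samples carrying these 2 treatment and time labels were taken, which gave 6 rats of the 50 in the series, 3 in each group (rat70, rat71 and rat72 with both drugs; rat40, rat41 and rat42 with nevirapine). Every gene with a probe set that maps to 1 gene symbol was compared, 14217 genes in all. The series was designed to follow the period in which the co-administration of both drugs led to liver fibrosis while either drug alone did not.

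All rats were female Brown Norway animals (Bn/Crl strain, MHC haplotype RT1n) of 9 to 11 weeks, and whole snap-frozen liver was profiled. The combination rats had received oral nevirapine for 9 d (150, then 100, then, after a drug holiday, 75 mg/kg), with 1 intraperitoneal injection of galactosamine at 750 mg/kg on day 7, and were killed 2 h after the tenth nevirapine dose. The nevirapine rats had received 2 d of nevirapine (150, then 100 mg/kg) and a sham injection, and were killed 2 h after the third dose. Galactosamine and the longer course of nevirapine therefore cannot be told apart in this contrast. Other groups served as references: 3 rats with sham doses only at 48 h (vehicle), 2 rats with galactosamine and a sham oral dose at 48 h, and 3 rats given nevirapine for 15 d with a sham injection 8 d before they were killed. The labels name each sample as a separate rat, and rats are not paired across groups.

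Galactosamine is taken up mainly by hepatocytes, where its conversion to UDP-sugars traps uridine phosphates and halts RNA synthesis, so that it is widely used to cause acute hepatocyte death in rats. Nevirapine is a non-nucleoside inhibitor of HIV reverse transcriptase that induces drug-metabolising enzymes through the nuclear receptors CAR and PXR and is known for immune-mediated skin and liver reactions in patients. Brown Norway rats are the strain in which its skin reaction has been modelled. After acute hepatocyte loss, macrophages and monocytes gather and clear debris, hepatocytes re-enter the cell cycle, and stellate cells can turn into matrix-producing myofibroblasts.

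Levels are the deposited log2 signals of the probe set with the highest mean for each gene, and differences are in log2 units, combination minus nevirapine, with the standard error (SE) of the fit. A gene was called when the limma moderated test, fitted over all 50 arrays and adjusted over 14217 genes (Benjamini-Hochberg), gave an adjusted p under 0.05. Values of single rats are given in the order rat70, rat71, rat72 for the combination and rat40, rat41, rat42 for nevirapine. A group mean under 4.37, the highest mean of the 27 bacterial control probe sets, was treated as not over background, and such a change is stated as a lower bound, at least so many fold, or with no size where both groups were under it. The checks of sign in the last section give fitted differences as they stand. The tissue markers fitted a liver label in all 6 rats: Alb, the gene of serum albumin, was at 14.15, 14.16 and 14.15 with both drugs and at 14.16, 14.16 and 14.14 with nevirapine. Epcam of bile duct epithelium, Lrat of quiescent stellate cells and the endothelial markers Pecam1, Stab2 and Lyve1 did not pass the test, and the T cell markers Cd3d, Cd3e and Cd3g, the B cell marker Ms4a1, the neutrophil markers S100a8 and S100a9, the mast cell marker Cpa3 and the bile duct keratins Krt7 and Krt19 were not over background in both groups.

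The groups also differed in spread and in an RNA quality measure. The combination rats varied more among themselves, with a median SD per gene of 0.181 against 0.117 among the nevirapine rats, and their arrays correlated with their own group at 0.984 to 0.986 against 0.994 to 0.995. The limma test takes 1 spread per gene over all 17 groups. Its SE and adjusted p can therefore be too small for genes in which the combination rats vary more than the other groups. The difference between the 3′ and 5′ GAPDH probe sets, which grows as RNA is degraded, was 0.293, 0.314 and 0.348 in the combination rats and 0.86, 0.0139 and 0.0984 in the nevirapine rats, so that rat40 stood apart from the others. With this difference as a covariate, 1387 genes were called higher and 1087 lower, against 1387 and 1085 without it. The mean of this measure was nearly the same in both groups, so the covariate could hardly move this contrast. It cannot show whether RNA quality mattered, and the counts without rat40 are given below.

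In total 2472 genes (17.4%) were called, 1387 higher with both drugs (9.76%) and 1085 lower (7.63%), while the median difference over all genes was 0.03. The shares of 9.76% and 7.63% are those to set beside each count of list members in this contrast. The rises went further than the falls: 212 of the higher genes but 43 of the lower ones changed by more than 2-fold. Among the 1387 higher genes, 268 had both group means under background and a further 196 had 1 of the 2 under it, so the larger part, 923, were measured in both. A fit of only the 6 arrays called 271 genes higher and 262 lower, without rat40 the counts were 854 and 520, and with the dimmest 40% of genes left out they were 668 and 999. The number of arrays limits the precision of every value, and a lower or higher signal in bulk liver RNA cannot separate a change in the number of cells of a type from a change in RNA per cell.

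**Figure D1:**
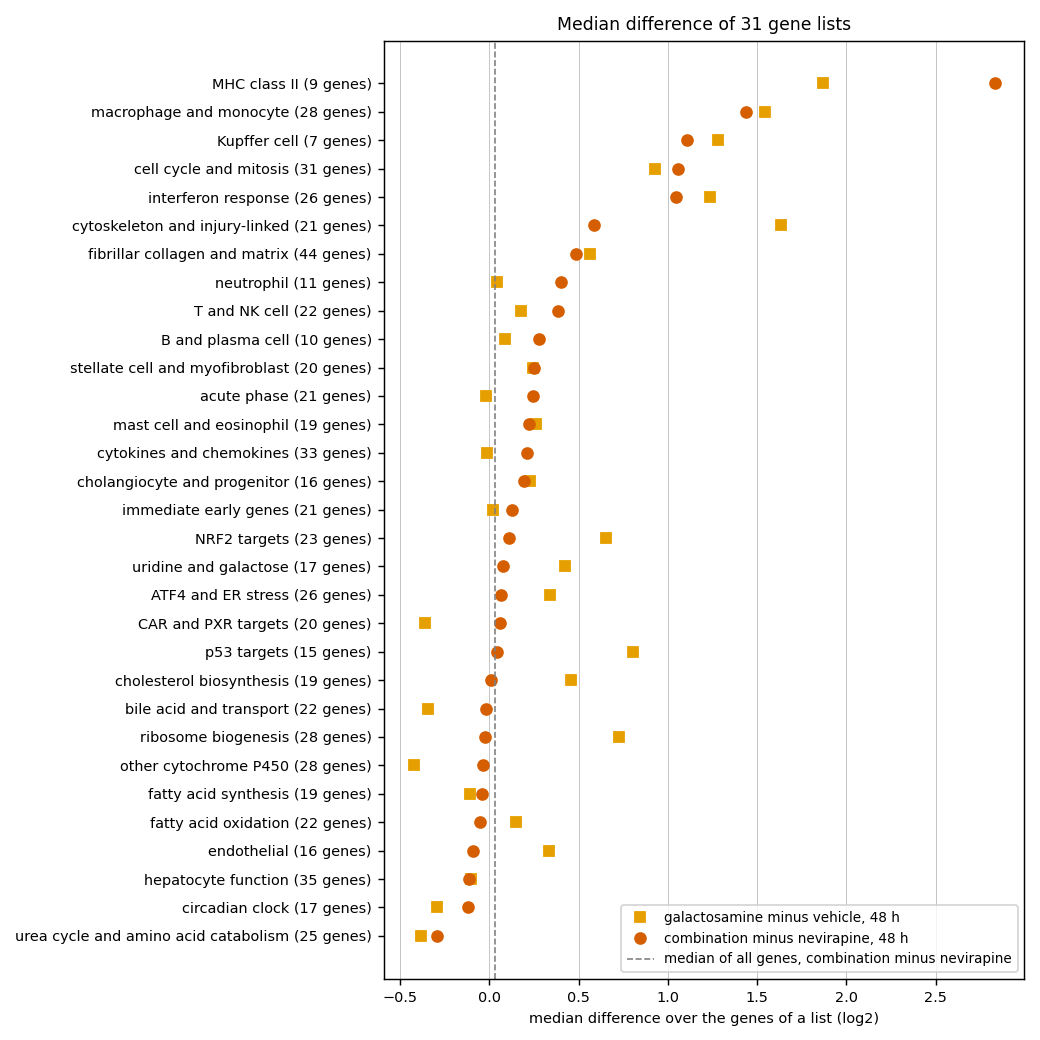
Median difference (log2, horizontal axis) over the measured genes of each of 31 gene lists (vertical axis, with the number of genes), for combination minus nevirapine (circles) and for galactosamine minus vehicle (squares), both at 48 h; the dashed line is the median of all genes for the former. MHC class II stands farthest to the right at 2.83, followed by the macrophage list at 1.44, while most metabolic lists lie near the dashed line.

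The genes of MHC class II antigen presentation changed most. Class II molecules are paired alpha and beta chains that show peptides from engulfed material to helper T cells, and the chaperone Cd74 (the invariant chain) holds the peptide groove closed until it is cut away in the lysosome. All 9 measured genes of the list rose, against 9.76% of all genes, with a median difference of 2.83, and 8 passed in the fit of only the 6 arrays. Levels of Cd74 were 10.92, 10.63 and 11.52 with both drugs against 7.31, 7.11 and 7.11 with nevirapine. Every combination rat lay more than 3 log2 units over every nevirapine rat, and the difference was 3.84 ± 0.25 (SE), a 14.4-fold rise (limma adjusted p = 8.37e-14), the largest rise of the 14217 genes.

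The chains themselves followed. RT1-Db1, the beta chain of the rat D molecule, was at 9.91, 9.51 and 10.74 against 6.47, 6.35 and 6.46, a 12.3-fold rise (3.62 ± 0.26, limma adjusted p = 1.13e-12). Its partner RT1-Da, the alpha chain, was at 10.42, 9.90 and 11.05 against 7.09, 6.76 and 6.86 and rose 11.7-fold (3.55 ± 0.26). The B molecule behaved likewise, with RT1-Bb (beta) at 8.40, 7.82 and 9.27 against 5.13, 5.01 and 4.91, an 11.2-fold rise, and RT1-Ba (alpha) at 10.99, 10.70 and 11.84 against 8.37, 8.17 and 8.49, a 7.13-fold rise. In each of these genes rat72 was the highest and rat71 the lowest of the combination rats. The class II genes are close copies, so that a probe set can pick up more than 1 of them, and another probe set for RT1-Bb gave a difference of -0.20 (limma adjusted p = 0.182). Another probe set for RT1-Db1 rose by 1.41, and 3 others for RT1-Ba rose by 0.54 to 2.87.

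Genes that load and trim the peptides were higher too. RT1-DMa and RT1-DMb, whose product exchanges peptides on class II, rose by 2.01 ± 0.24 and 2.00 ± 0.23. Ctss, the protease that cuts the invariant chain, rose by 1.42 ± 0.22, from 8.50, 8.52 and 8.27 to 9.79, 9.53 and 10.24. Ciita, the transactivator that class II promoters need, was at 5.35, 5.16 and 5.50 against 4.95, 5.06 and 4.74. Its rise of 0.42 ± 0.11 (limma adjusted p = 0.00737) lost its call without rat72 or without rat42, while another of its probe sets rose by 1.49 (limma adjusted p = 0.000112). These 4 genes were picked for mention after their values were seen. Markers of macrophages, which carry class II, were higher in the same rats: the mean level over 28 macrophage genes was 7.16 to 8.01 with both drugs and 6.25 to 6.45 with nevirapine. The part of these cells in the class II rise was not tested.

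Class II levels in the nevirapine rats were themselves lower than in vehicle rats, and this is part of the contrast. Against vehicle at 48 h (6.44% of all genes called lower), 5 of the 9 genes fell with nevirapine, with a median of -0.85, and Cd74 was at 9.11, 8.27 and 8.38 in the vehicle rats, 1.41 ± 0.25 over nevirapine. Against the same vehicle rats (10.2% of all genes called higher), 8 of 9 rose in the combination, with a median of 1.98. Cd74 was 2.44 ± 0.25 higher in the combination than in vehicle (limma adjusted p = 1.13e-08). These contrasts share rats with the main one and are given side by side, not as separate evidence.

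The upstream sequences of the 4 chain genes that rose most are shown because they share a short element. RefSeq promoter windows of the rat genome (GRCr8) were searched in the 250 bases before each start site on both strands for CTGATTGG, the inverted CCAAT form known as the Y box of class II promoters. It occurs in 4 of the 7 class II promoters that had an entry and in 4.53% of the 11700 promoters searched. Windows lie at chr20:4515165-4515414 (plus strand) for RT1-Da, chr20:4560163-4560412 (minus strand) for RT1-Db1, chr20:4576807-4577056 (plus strand) for RT1-Ba and chr20:4604119-4604368 (minus strand) for RT1-Bb. The element, in capitals, starts 52, 83, 46 and 64 bases before the start site in this order:
RT1-Da: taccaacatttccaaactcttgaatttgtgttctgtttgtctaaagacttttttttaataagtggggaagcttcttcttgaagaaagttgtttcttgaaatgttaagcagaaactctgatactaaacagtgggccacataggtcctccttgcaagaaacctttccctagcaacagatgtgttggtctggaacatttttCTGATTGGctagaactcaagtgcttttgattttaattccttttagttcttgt
RT1-Db1: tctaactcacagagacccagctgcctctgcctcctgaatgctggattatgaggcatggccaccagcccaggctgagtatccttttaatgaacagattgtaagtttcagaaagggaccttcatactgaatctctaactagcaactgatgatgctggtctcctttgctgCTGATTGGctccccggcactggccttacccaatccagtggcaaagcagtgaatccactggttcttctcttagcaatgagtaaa
RT1-Ba: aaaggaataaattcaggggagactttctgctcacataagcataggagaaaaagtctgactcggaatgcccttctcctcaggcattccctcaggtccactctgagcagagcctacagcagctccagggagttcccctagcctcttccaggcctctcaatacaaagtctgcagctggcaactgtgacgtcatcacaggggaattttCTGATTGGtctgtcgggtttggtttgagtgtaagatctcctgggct
RT1-Bb: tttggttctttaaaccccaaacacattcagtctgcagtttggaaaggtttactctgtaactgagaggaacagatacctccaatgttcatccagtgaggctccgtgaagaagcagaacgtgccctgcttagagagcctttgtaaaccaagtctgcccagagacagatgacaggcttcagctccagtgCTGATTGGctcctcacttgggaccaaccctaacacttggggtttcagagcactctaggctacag
It was found in none of 21 interferon promoters and in 6 of 23 cell cycle promoters, where an inverted CCAAT box is also common. A match describes the letters and says nothing about factor binding in these livers.

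**Figure D2:**
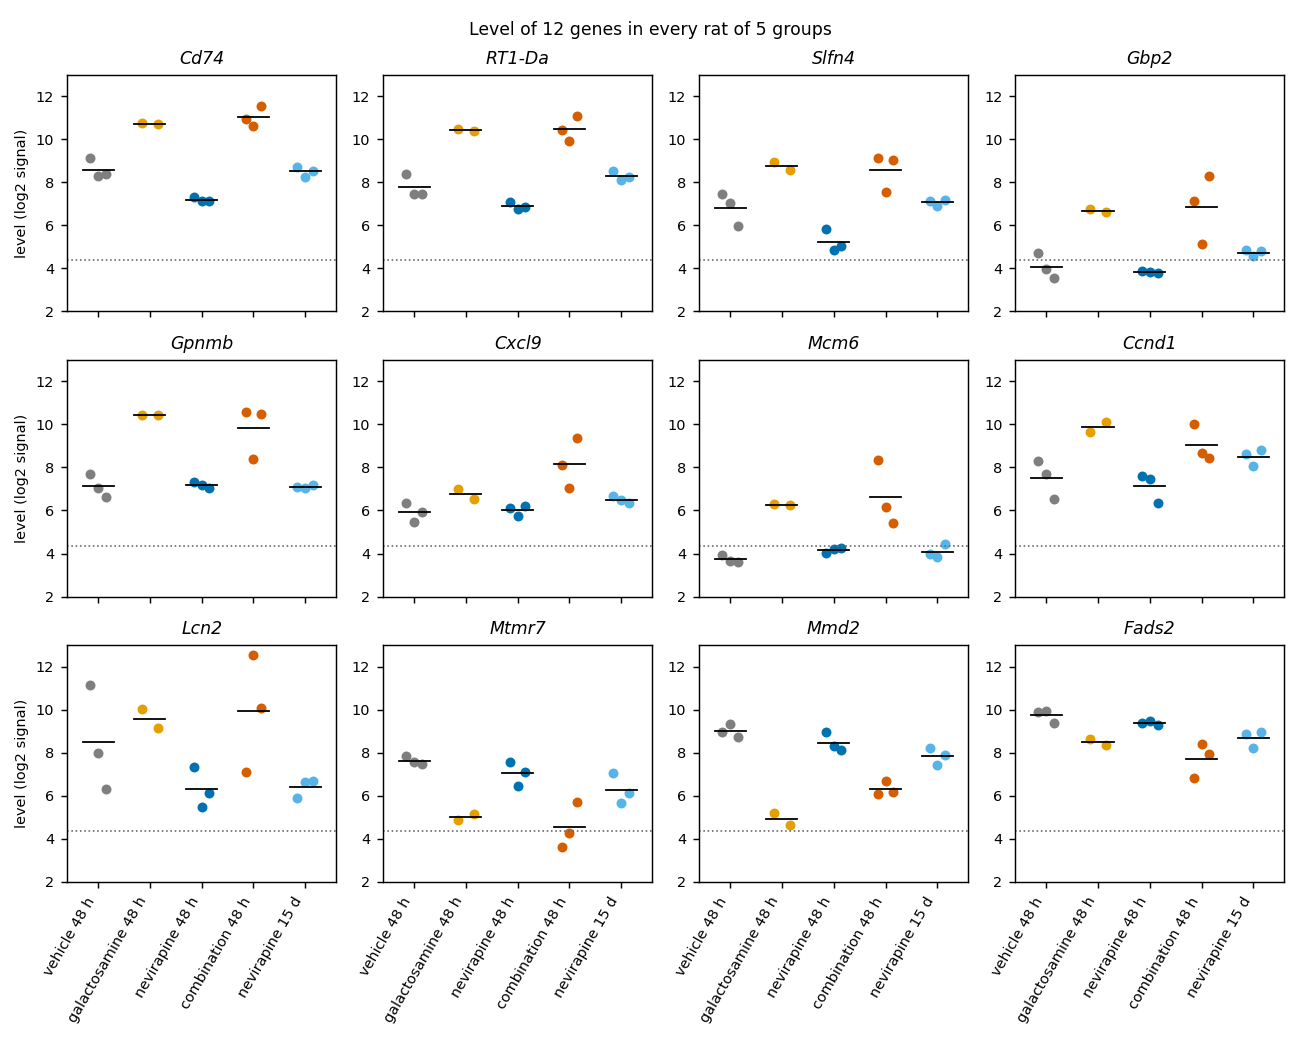
Level (log2 signal, vertical axes) of 12 genes in every rat of 5 groups; points are rats, horizontal bars are group means and the dotted line is the background level of 4.37. Cd74 and RT1-Da in the combination rats lie over every vehicle and nevirapine rat, while Gbp2, Mcm6 and Lcn2 spread widely among the 3 combination rats.

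Interferon-induced genes rose as a group, though unevenly among the rats. Of 26 measured genes 20 rose and none fell, against 9.76% higher and 7.63% lower over all genes, with a median of 1.05. Interferons are cytokines that switch on antiviral and antigen-presenting genes, and the largest rises were in GTPases of the cell's own defence. Gbp2, a guanylate-binding protein, was at 7.14, 5.14 and 8.27 against 3.86, 3.82 and 3.80, at least a 5.58-fold rise (limma adjusted p = 4.39e-06). Rat71 was lowest and the 3 nevirapine rats were under background. The SD of Gbp2 was 1.58 with both drugs and 0.03 with nevirapine, and the test uses the spread over all groups instead. Gbp7, of the same family, rose at least 3.98-fold from levels of 4.75, 4.05 and 3.95 to 6.84, 4.95 and 7.67.

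The immunity-related GTPases Igtp and Ifgga2l1 showed the same order of rats. Igtp was at 8.89, 7.26 and 9.84 against 7.01, 6.78 and 6.76, a rise of 1.81 ± 0.36 (limma adjusted p = 0.000473). Ifgga2l1 was at 9.14, 7.31 and 10.09 against 7.07, 6.17 and 6.05, a rise of 2.42 ± 0.47. Irf7, a regulator of the type I response, had another order, with rat70 far over the others: 9.13, 7.00 and 7.31 against 6.23, 6.02 and 6.26, a rise of 1.65 ± 0.29. Isg15, a ubiquitin-like protein, shared that order at 8.61, 6.42 and 6.97 against 5.85, 5.82 and 6.04 (1.43 ± 0.33). Psmb9, a subunit of the immunoproteasome, rose by 1.64 ± 0.26 and the regulator Irf1 by 1.46 ± 0.25. Isg15 and Irf1 were picked after their values were seen.

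Without rat70 the interferon count was 14 of 26, and in the fit of only the 6 arrays it was 4. With galactosamine alone 19 of the 26 genes rose against vehicle, with a median of 1.24 (24.9% of all genes called higher).

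The core of the interferon-stimulated response element, GAAA followed by any 2 bases and GAAA again, was found on either strand in 14 of 21 interferon promoters with an entry and in 2.66% of all promoters. It was found in 5 of 22 macrophage promoters, 1 of 7 class II promoters and none of 23 cell cycle promoters. Gbp2 (chr2:234005477-234005726, plus strand) and Igtp (chr10:42874797-42875046, plus strand) are shown since they rose and hold it, Gbp2 at 31 bases before the start site (element in capitals):
Gbp2: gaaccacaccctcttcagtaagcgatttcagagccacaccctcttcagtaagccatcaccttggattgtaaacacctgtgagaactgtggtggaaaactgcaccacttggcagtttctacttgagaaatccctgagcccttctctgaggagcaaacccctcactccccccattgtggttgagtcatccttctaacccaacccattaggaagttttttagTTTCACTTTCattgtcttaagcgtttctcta
Igtp: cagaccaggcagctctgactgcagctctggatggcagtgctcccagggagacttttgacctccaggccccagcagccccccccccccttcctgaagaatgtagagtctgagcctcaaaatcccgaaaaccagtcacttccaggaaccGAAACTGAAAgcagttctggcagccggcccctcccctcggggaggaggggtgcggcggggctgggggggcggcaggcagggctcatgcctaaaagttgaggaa

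Of 33 measured cytokine and chemokine genes 10 rose and 1 fell, against 9.76% and 7.63% of all genes, with a median of 0.21. Cxcl9 and Cxcl10 code for ligands of CXCR3 that draw activated T cells. Cxcl9 was at 8.09, 7.06 and 9.36 against 6.10, 5.74 and 6.19, a rise of 2.16 ± 0.34 (limma adjusted p = 2.19e-05). Cxcl10 rose at least 3.42-fold, from 3.72, 4.23 and 4.13 to 6.40, 5.67 and 6.37. Ccl6, a macrophage chemokine of rodents, was at 10.80, 10.35 and 10.92 against 9.06, 8.93 and 8.68 (1.80 ± 0.26), and the inflammatory cytokine Il1b was at 6.65, 6.51 and 7.83 against 5.51, 5.04 and 5.32 (1.71 ± 0.31). Both groups were fully separated for these 4 genes, as they were in 1 direction or the other for 4676 of the 14217 genes (32.9%).

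Ccl11, which draws eosinophils, was at 5.28, 2.97 and 6.98 against 2.47, 2.86 and 2.66, at least a 1.64-fold rise. Rat71 lay just over the highest nevirapine rat, and the call was lost without rat72. The monocyte chemokine Ccl2 was called with both means under background, and that call too was lost without rat72. Il33, an alarmin, was the member that fell, by 0.64 (limma adjusted p = 0.0373), a call that was lost without rat70, rat40 or rat41. Ccl2 and Il33 were picked after their values were seen.

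Macrophage and monocyte genes rose together, with 21 of 28 measured genes higher (9.76% of all genes were) and none lower. The median was 1.44, and 18 passed with only the 6 arrays. Gpnmb, a glycoprotein of phagocytic macrophages, was at 10.57, 8.41 and 10.46 against 7.30, 7.17 and 7.06, a 6.22-fold rise (2.64 ± 0.35, limma adjusted p = 2.17e-06). Lgals3, the carbohydrate-binding protein galectin-3, ran in parallel at 10.22, 8.28 and 10.27 against 7.53, 7.41 and 7.46 (2.12 ± 0.35). For both genes rat71 lay about 2 log2 units under the other combination rats, and still over every nevirapine rat.

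Receptors and enzymes of the same cells were higher as well. Fcgr3a, an activating Fc receptor, was at 7.38, 6.42 and 8.70 against 5.62, 5.11 and 4.95 (2.27 ± 0.30), and the elastase Mmp12 rose at least 2.51-fold. The defining markers rose: Cd68, a lysosomal protein, from 7.29, 6.88 and 6.61 to 8.65, 8.24 and 9.18 (1.77 ± 0.28), Csf1r, the receptor for the macrophage growth factor, by 1.63 ± 0.26 and Adgre1, an adhesion receptor of tissue macrophages, by 1.28 ± 0.31. Cd14, the endotoxin co-receptor, did not pass (0.47, limma adjusted p = 0.149). Slfn4, a schlafen protein of myeloid cells, and Bcl2a1, a survival factor of leukocytes, belong to no list but were among the 15 largest rises. Slfn4 was at 9.15, 7.53 and 9.04 against 5.84, 4.83 and 5.01 (10.2-fold), although another probe set for it differed by only 0.11 (limma adjusted p = 0.646). Bcl2a1 was at 6.72, 5.44 and 6.88 against 4.16, 3.75 and 3.85, at least 3.94-fold higher.

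Kupffer cells are the resident macrophages of the liver, and 5 of 7 measured markers rose with none lower (median 1.11), against 9.76% higher over all genes. Cd5l, a secreted scavenger protein, was at 9.71, 9.60 and 10.26 against 7.97, 7.55 and 7.60 (2.15 ± 0.30). Clec4f, a lectin largely restricted to these cells, was at 10.27, 10.20 and 10.56 against 9.41, 9.28 and 9.03 (1.11 ± 0.23), and Cd163, the haemoglobin scavenger receptor, at 7.88, 7.96 and 8.81 against 7.24, 7.05 and 6.90 (1.15 ± 0.23). The 3 combination rats were closer to each other here than for Gpnmb. Il18bp rose by 1.18 ± 0.16, and Folr2, picked after its value was seen, by 0.99 ± 0.23, a call lost without rat72. Marco had no probe set with 1 symbol.

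Many markers of lymphocytes, granulocytes and mast cells were measured near the background. Fewer of the B and plasma cell genes were, with 4 of 10 under it in both groups. Of 22 T and NK cell genes 11 rose (9.76% of all genes did) and none fell, with a median of 0.38. However, 12 of the 22 had both means under background, and 3, 6 and 5 were called without rat72, rat40 and rat42. Gzma, a granzyme of cytotoxic cells, was at 5.18, 4.89 and 6.23 against 4.07, 3.98 and 4.34, at least a 2.09-fold rise (limma adjusted p = 0.000196). Prf1, the pore-forming protein of the same granules, rose at least 1.89-fold. The 6 arrays alone gave 1 called gene of this list.

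Of 10 B and plasma cell genes 3 rose (9.76% of all genes did), namely Cd74, which macrophages and other presenting cells share, Cd22 (0.75 ± 0.11) and Pou2af1. The Pou2af1 call was lost when any rat but rat70 was left out, and without rat70 the list had 5. Of 19 mast cell and eosinophil genes 4 rose, against 9.76% of all genes, and 2 were called without rat71, rat72 or rat41. Examples were Siglec5 at 1.36 ± 0.30 and the mast cell protease Mcpt1 at 0.84 ± 0.26. Of 11 neutrophil genes 5 rose, against 9.76% of all genes. In both groups 7 of the list were under background, and of the called ones only Lcn2 was over it in both. From 1 to 3 of the list were called when rat71, rat72 or any nevirapine rat was left out.

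Lcn2, a siderophore-binding protein that neutrophils and injured hepatocytes make, showed the widest spread. It was at 7.13, 12.52 and 10.10 with both drugs and at 7.33, 5.46 and 6.14 with nevirapine, so that rat70 lay within the nevirapine range. The difference of 3.61 ± 1.09 (limma adjusted p = 0.0193) lost its call without rat71, rat72, rat41 or rat42, and the vehicle rats alone ran from 6.34 to 11.12. It is also 1 of 21 measured acute phase genes, of which 5 rose and 1 fell (median 0.25), against 9.76% and 7.63% of all genes. Of this list 10, 3, 2 and 2 were called higher without rat70, rat71, rat72 and rat40. Stat3, the transcription factor of this response, was at 9.19, 9.50 and 9.72 against 8.62, 8.21 and 7.85 (1.24 ± 0.26), and Crp at 12.99, 12.96 and 12.94 against 10.98, 12.57 and 12.61, a call lost without rat40.

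Genes of DNA replication and mitosis rose in 22 of 31 cases, against 9.76% of all genes, with none lower (median 1.06). However, 8 of the 31 had both means under background. Mcm6, a subunit of the replicative helicase, was at 8.34, 6.16 and 5.44 against 4.002, 4.21 and 4.27, at least a 4.84-fold rise (limma adjusted p = 3.26e-05). Its SD was 1.51 with both drugs and 0.14 with nevirapine, and the test uses the spread over all groups instead. Mcm5, of the same complex and picked after its value was seen, was at 7.16, 6.35 and 6.09 against 5.02, 5.38 and 5.07 (1.38 ± 0.18). Ccnd1, cyclin D1, which carries cells out of rest, was at 10.04, 8.65 and 8.42 against 7.59, 7.46 and 6.37 (1.90 ± 0.45, limma adjusted p = 0.00325). In all 3 genes rat70 was highest and every combination rat lay over every nevirapine rat. Over all genes 32.9% showed no overlap of the 2 groups, in either direction.

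The mitotic genes depended more on rat70. Cdk1, the kinase that starts mitosis, was at 6.47, 4.68 and 5.85 against 3.67, 3.92 and 4.01, at least 2.45-fold higher, and Mki67, the Ki-67 antigen of cycling cells, at 5.56, 3.31 and 4.67 against 2.62, 2.51 and 2.58, at least 1.1-fold higher. Both lost their call without rat70, and the list then had 11 called genes. The fit of only the 6 arrays called 8. With the dimmest 40% of genes left out, 7 of the list were still tested and 4 of these were called.

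The E2F-type element TTTCGCGC was found on either strand in 5 of 23 cell cycle promoters (Cdk1, Mcm2, Mcm5, Mcm6 and Mcm7) and in 0.42% of all promoters. Mcm6 (chr13:42404353-42404602, minus strand) and Mcm5 (chr19:13488563-13488812, plus strand) are shown as the helicase genes described above, with the element, in capitals, 135 and 213 bases before the start site:
Mcm6: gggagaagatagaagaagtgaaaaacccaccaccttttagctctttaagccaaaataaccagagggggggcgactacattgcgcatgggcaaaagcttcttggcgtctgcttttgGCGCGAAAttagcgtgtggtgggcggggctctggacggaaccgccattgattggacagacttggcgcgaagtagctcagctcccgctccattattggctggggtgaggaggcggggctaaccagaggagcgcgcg
Mcm5: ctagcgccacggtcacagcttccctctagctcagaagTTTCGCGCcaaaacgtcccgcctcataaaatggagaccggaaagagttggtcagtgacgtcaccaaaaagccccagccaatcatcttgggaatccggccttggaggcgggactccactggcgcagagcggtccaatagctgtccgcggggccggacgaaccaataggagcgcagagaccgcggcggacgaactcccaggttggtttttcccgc

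Genes of fibrous matrix and of stellate cells rose mainly in rat72. Of 44 measured matrix genes 8 rose (18.2%, against 9.76% of all genes) and none fell (median 0.49). Timp1, an inhibitor of matrix-degrading proteases, was at 6.85, 6.07 and 8.63 against 5.66, 5.84 and 5.82, a rise of 1.41 ± 0.36 (limma adjusted p = 0.00532). Col1a1, a chain of type I collagen, was at 6.26, 6.45 and 7.61 against 5.41, 5.50 and 5.87 (1.18 ± 0.40, limma adjusted p = 0.0347), and Col6a2 at 5.98, 6.18 and 8.36 against 5.54, 5.80 and 5.96 (1.08 ± 0.35). Another probe set for Col1a1 differed by 1.39 and did not pass (limma adjusted p = 0.106). All 3 calls were lost without rat72, those of both collagens also without rat40 or rat41, and without rat72 the list had 3 called genes and a median of 0.09. Without rat70 it had 16 called genes, without rat71 13, without rat40 or rat41 5, and in the fit of only the 6 arrays none. Postn, periostin, read 6.71 in rat72 against 2.95 and 2.80 in the other combination rats and did not pass (limma adjusted p = 0.126).

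Of 20 stellate cell and myofibroblast genes 5 rose, against 9.76% of all genes (median 0.25). None were called without rat72, 2 without rat40 or rat41 and 3 without rat42. Vim, the mesenchymal filament protein vimentin, was at 8.21, 8.01 and 9.84 against 7.30, 6.78 and 7.16 (1.60 ± 0.43), and Des, desmin, at 5.48, 5.51 and 6.94 against 5.08, 5.35 and 5.32 (0.73 ± 0.25). The Vim call was lost without rat72, and that of Des without rat72 or any nevirapine rat. Acta2, the smooth muscle actin that marks myofibroblasts, rose by 0.61 ± 0.17 (limma adjusted p = 0.00997), a call lost without rat72 or rat40. Tagln, another contractile marker, did not pass (0.90, limma adjusted p = 0.181).

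Among 21 cytoskeletal and injury-linked genes 8 rose (9.76% of all genes did) and none fell (median 0.59), and 4 were called without rat70. Anxa2, a membrane-binding annexin, was at 9.40, 7.34 and 8.25 against 7.01, 6.77 and 6.87 (1.45 ± 0.36). Tubb6, a tubulin, was at 7.10, 6.28 and 6.35 against 5.51, 5.68 and 5.62 (0.97 ± 0.22), and the epithelial keratin Krt18 was at 11.76, 11.15 and 10.96 against 10.47, 10.52 and 10.51 (0.79 ± 0.20). Rat70 was highest in each, and the calls of Anxa2 and Krt18 were lost without it. Other probe sets for Anxa2 (0.34, limma adjusted p = 0.179) and Tubb6 (0.13, limma adjusted p = 0.441) did not pass.

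**Figure D3:**
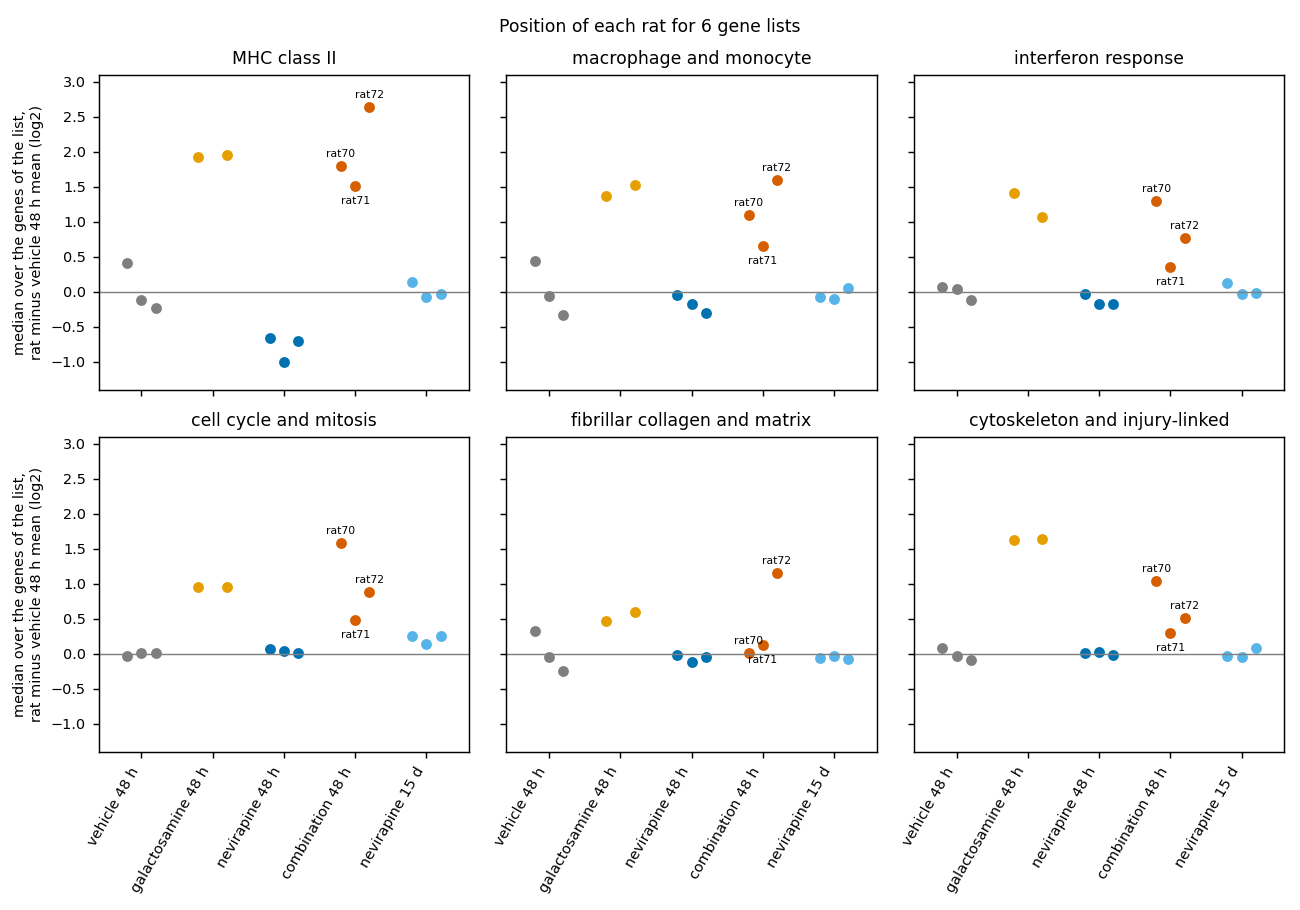
Median over the genes of 6 lists of each rat's level minus the vehicle 48 h mean (log2, vertical axes) for the rats of 5 groups (horizontal axes); each point is a rat, with the 3 combination rats named. Rat72 is the highest combination rat for MHC class II (2.64) and matrix (1.15), rat70 for interferon (1.30) and cell cycle (1.58), and rat71 is the lowest for 5 of the 6 lists.

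The 3 combination rats thus differed in which programme was high. Relative to the vehicle mean, the median of the matrix list was 0.01, 0.12 and 1.15 in rat70, rat71 and rat72, while that of the cell cycle list was 1.58, 0.48 and 0.88. MHC class II stood at 1.80, 1.504 and 2.64 and the macrophage list at 1.10, 0.66 and 1.60. The nevirapine rats lay between -0.67 and -1.001 for class II, and between -0.05 and -0.31 for macrophages. What set the rats apart was not tested.

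The largest falls were in genes of varied function. Mtmr7, a myotubularin-family lipid phosphatase, was at 3.61, 4.28 and 5.72 with both drugs against 7.59, 6.45 and 7.10 with nevirapine, a 5.7-fold fall (-2.51 ± 0.51, limma adjusted p = 0.000658). Mmd2, a membrane protein of the PAQR family, was at 6.06, 6.67 and 6.18 against 8.98, 8.31 and 8.13, a 4.5-fold fall (-2.17 ± 0.29). Bdh2, a cytosolic hydroxybutyrate dehydrogenase, was at 5.55, 6.53 and 5.75 against 7.51, 7.64 and 7.74 (-1.69 ± 0.21), and Zfp354a, a zinc finger protein, at 7.55, 7.83 and 8.70 against 9.52, 10.13 and 9.49 (-1.69 ± 0.39). Groups did not overlap in any of these, which the naming rule required.

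Esm1, a proteoglycan of activated endothelium, came next after Mtmr7 and Mmd2 in fitted size, at 4.12, 3.51 and 2.97 against 6.08, 4.75 and 6.23, at least 2.49-fold lower (limma adjusted p = 0.000545). Here the nevirapine rats were the ones that stood apart from vehicle, while the combination against vehicle did not pass. The vehicle and combination means were under background, so no sizes are given against vehicle. Fads2, which desaturates dietary polyunsaturated fatty acids, was at 6.82, 8.41 and 7.96 against 9.39, 9.47 and 9.28 (-1.65 ± 0.29), and Ptger3, a prostaglandin E receptor, at 5.53, 6.71 and 6.01 against 7.86, 7.31 and 7.65 (-1.52 ± 0.27). The other falls among the 15 largest were Elapor1, the sulfotransferase Sult1c2, Cyp2a2, Rab30, the lipid kinase Pik3c2g, the glycine-cleaving enzyme Gldc, the stress regulator Nupr1 and Rcan2, by 1.39 to 1.57. Other probe sets for Ptger3 (-0.34) and Gldc (1 of 2, -0.08) did not pass. Of these falls, Cyp2a2 lost its call without rat72, Nupr1 without rat70 and Rab30 without rat70 or rat40.

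Amino acid catabolism was the metabolic list with the lowest median, -0.29, with 5 of 25 genes lower and none higher (7.63% of all genes were called lower). Prodh, proline dehydrogenase, was at 7.86, 9.17 and 9.90 against 10.35, 10.15 and 10.29 (-1.29 ± 0.28, limma adjusted p = 0.00157), although another of its probe sets differed by 0.05 (limma adjusted p = 0.814). Hal, which breaks down histidine, was at 7.67, 9.74 and 9.21 against 10.44, 9.56 and 10.39 (-1.26 ± 0.37) and overlapped. Gpt, alanine aminotransferase, was at 8.83, 9.99 and 9.76 against 10.60, 10.31 and 10.86 (-1.06 ± 0.25), a call lost without rat70. Gls2 (-1.05 ± 0.32) and Bckdha (-0.56 ± 0.12) were picked after their values were seen, and against nevirapine at 15 d Bckdha turned to 0.11 and did not pass. Rat70 was the lowest for the first 3 genes, as it was for Sds, serine dehydratase, at 5.35 against 8.36 and 9.61 in the other combination rats, which did not pass (-1.88 ± 0.69, limma adjusted p = 0.054). Hal and Gls2 lost their calls without rat70, rat40 or rat42. Without rat70 the list had 2 called genes, without rat40 or rat42 3, and in the fit of only the 6 arrays none.

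Of 28 cytochrome P450 genes outside the CAR and PXR list 6 fell (7.63% of all genes did) and none rose, with a median of -0.04. The example with the highest level was Cyp1a2, a caffeine-metabolising enzyme, at 10.49, 11.69 and 12.08 against 12.23, 12.14 and 12.20 (-0.77 ± 0.26, limma adjusted p = 0.0343), a call lost without rat70 or any nevirapine rat. The list had 3 called genes in each of those cases. Among 22 bile acid and transport genes the sterol exporters Abcg5 and Abcg8 and the bile acid receptor Nr1h4 fell, and none rose. Abcg5 was at 6.82, 7.05 and 6.45 against 7.85, 8.13 and 7.85 (-1.17 ± 0.37) and its partner Abcg8 fell by 0.99 (limma adjusted p = 0.00812). None of the list was called lower without rat72 (1 gene was then called higher), 1 was without rat40 and 5 without rat71. Against nevirapine at 15 d the sign of Abcg8 turned, to 0.23, and did not pass. Of 35 genes of hepatocyte function 1 rose and 3 fell (median -0.11), with none called lower without rat70, rat40 or rat42, 5 without rat71 and 6 without rat72. Fatty acid oxidation (22 genes), cholesterol biosynthesis (19) and clock genes (17) had no called member at all, with medians of -0.05, 0.01 and -0.12. Of 19 fatty acid synthesis genes 2 rose, with Elovl6 at 1.00 ± 0.26 (lost without rat70), and 2 fell, Fads2 as above and Srebf1 by 0.82 (lost without rat70, rat71 or rat40). Another probe set for Srebf1 differed by -0.0002, and against nevirapine at 15 d the difference was 0.077; neither passed.

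Both groups carried nevirapine, and the measured genes of the CAR and PXR list were called about as often as all genes in this contrast. Of 29 genes on the list 20 were measured, among them the receptor genes Nr1i2 and Nr1i3 themselves but no Cyp2b gene. Of these 20 genes 2 rose (10%, against 9.76% of all genes) and 1 fell (5%, against 7.63%), with a median of 0.06. Against vehicle 16 rose with nevirapine (11% of all genes called higher) and 15 with the combination (10.2% of all genes), each with a median of 1.29. Sult1e1, oestrogen sulfotransferase, was the largest, at 13.16, 12.51 and 11.89 against 10.67, 9.98 and 10.75 (2.05 ± 0.67, limma adjusted p = 0.0292), a call lost without rat70, rat71, rat40 or rat41. It was 5.77 over vehicle in the combination and 3.72 with nevirapine. Gstm3 rose by 1.23 ± 0.40 (lost without rat70, rat71 or rat40), and Cyp3a18 fell by 1.22, from 10.64, 11.52 and 11.20 to 9.87, 10.78 and 9.05 (lost without rat72 or rat41). Against nevirapine at 15 d Cyp3a18 turned to 0.21 and did not pass.

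Stress programmes too were called at shares near or under those of all genes (9.76% higher, 7.63% lower). Of 23 NRF2 targets 1 rose and 2 fell (median 0.11); the riser was Hmox1, haem oxygenase, at 8.81, 9.38 and 9.33 against 7.85, 8.14 and 8.09 (1.15 ± 0.25). Of 26 ATF4 and ER stress genes 1 rose (median 0.06). Of 15 p53 targets Phlda3 alone was called, at 7.84, 6.94 and 6.52 against 5.83, 6.19 and 6.35 (0.98 ± 0.26), and that was lost without rat70 or rat40. Cdkn1a, the cell cycle inhibitor p21, was at 8.54, 7.02 and 6.02 against 6.90, 7.26 and 7.85 and did not pass (-0.14, limma adjusted p = 0.8). Among 28 ribosome biogenesis genes 1 rose and 3 fell, with Polr1c, a subunit of RNA polymerase I, at 7.28, 6.85 and 6.92 against 7.64, 7.63 and 7.64 (-0.62 ± 0.09). The count of falls was 5 without rat70 and 1 without rat71, rat40 or rat42.

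The uridine and galactose list holds the pathway that galactosamine enters. Of 17 genes 4 rose (23.5%) and 2 fell (11.8%), with a median of 0.07. Over all genes 9.76% rose and 7.63% fell, the shares to set beside each list count in this paragraph. Slc28a2, a nucleoside transporter, was at 8.77, 8.29 and 8.81 against 7.53, 7.32 and 7.41 (1.20 ± 0.18), and Ctps1, which makes CTP from UTP, rose by 0.73 ± 0.25, a call lost without rat70 or any nevirapine rat. The list had 2 called rises without rat70, rat41 or rat42, and 5 called falls without rat70 but 1 without rat72, rat40 or rat41. Galk2, an N-acetylgalactosamine kinase, was at 7.05, 7.17 and 7.36 against 8.18, 7.89 and 7.87 (-0.79 ± 0.11, limma adjusted p = 2.17e-06). Of 16 endothelial genes Plvap, a component of the diaphragms of fenestrae, rose from 6.70, 6.26 and 6.09 to 7.75, 7.39 and 8.12 (1.40 ± 0.19), and Tek and Flt1 fell, calls that were lost without rat40. For Flt1, 2 other probe sets had the opposite sign. Of 21 immediate early genes Junb, an AP-1 subunit, was called (1.06 ± 0.35; lost without rat71, rat40 or rat42), and of 16 cholangiocyte and progenitor genes Krt18 was.

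A second reference, rats given nevirapine for 15 d, bears on the unequal dosing, since their course was longer than that of the combination rats. In this contrast 4107 genes (28.9%) were called, 2698 higher and 1409 lower, and after a further loess normalization the higher share moved from 65.7% to 52.3%. All 15 of the largest rises had the same direction against this reference, 14 of them called (19% of all genes were called higher). All 15 of the largest falls did too, 10 of them called (9.91% of all genes were called lower). These genes were picked as the largest in the main contrast, and both contrasts use the same 3 combination rats. A shared direction was therefore favoured by the choice of genes. Cd74 was 2.52 ± 0.25 over the 15 d rats, at 8.72, 8.25 and 8.53, and all 9 class II genes were called, with a median of 1.94 (19% of all genes called higher). Gpnmb differed by 2.72 ± 0.35 from this reference. Mcm6 had a mean of 6.64 in the combination against 4.08 in the 15 d rats, which is under background, so no size is given.

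Some differences were smaller against it, and those of Abcg8, Cyp3a18, Srebf1 and Bckdha turned in sign, as given above. Between nevirapine at 15 d and at 48 h, 1914 genes (13.5%) were called, 462 higher and 1452 lower, and 1225 and 1162 without rat44 and rat45. After loess the higher share moved from 24.1% to 48.5%. With only these 6 arrays 3379 genes were called, and with array weights 4671. Cd74 was 1.32 higher at 15 d (limma adjusted p = 0.000377), as were 5 of the 9 class II genes (3.25% of all genes called higher). Ifgga2l1 was 1.56 higher at 15 d and then differed from the combination by 0.85 ± 0.47 (limma adjusted p = 0.172). Gldc and Cyp2a2 were 1.17 and 1.27 lower at 15 d, and then differed from the combination by -0.24 and -0.17, which did not pass. The 15 d and 48 h nevirapine rats also differ in the time since the sham injection.

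Galactosamine alone gives the difference without nevirapine, galactosamine minus vehicle at 48 h, from 5 other rats. In that contrast 5600 genes (39.4%) were called, 3534 higher and 2066 lower, and 3708 without rat27. Across the 14217 genes, which are not independent replicates, the 2 differences correlated at r = 0.269 (Spearman's rho = 0.049), and the SD over genes was 0.364 for combination minus nevirapine and 0.601 for galactosamine minus vehicle. The departure from additivity, the former difference minus the latter, was called for 4837 genes (34%), 2027 with a positive sign (14.3%) and 2810 with a negative sign (19.8%). Without rat27, which leaves 1 galactosamine rat assumed to vary like the other groups, 3207 genes were called. The departure also carries the difference in days of nevirapine.

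**Figure D4:**
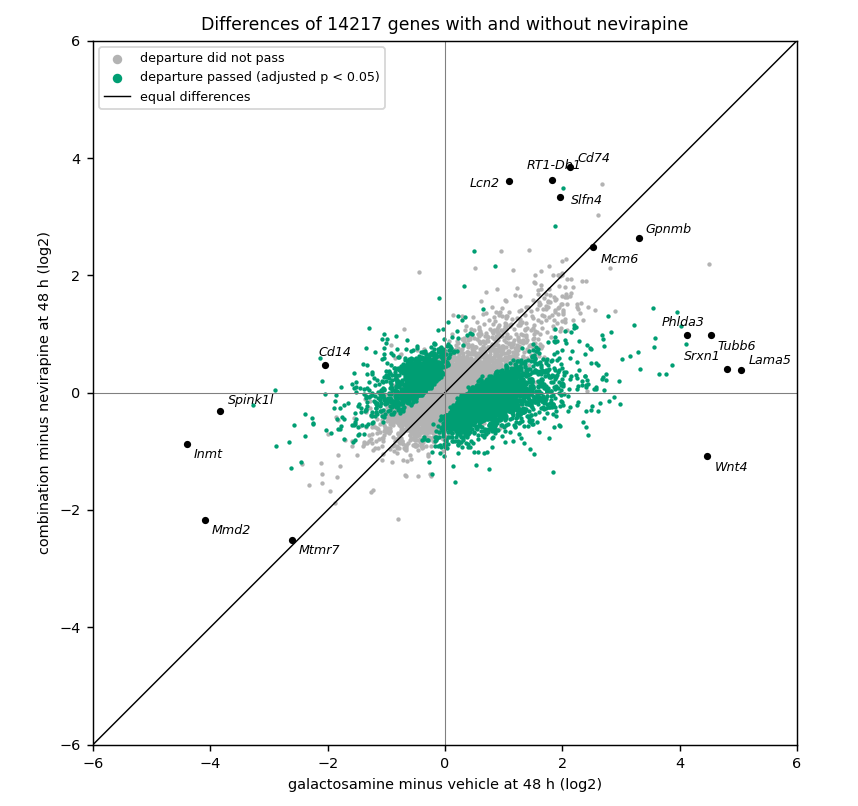
Difference of each of 14217 genes (points, log2) with galactosamine alone (galactosamine minus vehicle, horizontal axis) and on top of nevirapine (combination minus nevirapine, vertical axis) at 48 h; coloured points passed the test of the departure and the line marks equal differences. Lama5 and Srxn1 lie far right, at 0.39 and 0.40 on the vertical axis, and Tubb6 far right at 0.97, while Cd74 and RT1-Db1 lie over the line.

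The MHC class II list had the highest median departure of the 31 lists, 0.87, against -0.02 over all genes. Departures were called for 5 of 9 genes, all positive, while 14.3% of all genes departed positively. Among the chains and Cd74 they were 1.71 ± 0.38 for Cd74 (limma adjusted p = 0.000614), 1.80 ± 0.39 for RT1-Db1, 1.48 for RT1-Bb and 0.96 for RT1-Ba. These values rest on 1 probe set per gene. In combination minus nevirapine other probe sets gave -0.20 for RT1-Bb (limma adjusted p = 0.182), 1.41 for RT1-Db1 and 0.54 to 2.87 for RT1-Ba. RT1-Da had 0.87 and did not pass (limma adjusted p = 0.0787). With galactosamine alone Cd74 was at 10.73 and 10.71, within the range of the combination rats, while the nevirapine rats were under the vehicle rats. Positive departures were also called for Slfn4 (1.39), Ifgga2l1 (1.92) and Cxcl9 (1.30), and each of these calls was lost when any of 7 or 8 rats was left out. The call of RT1-Ba was lost without rat72, rat10 or rat26. With galactosamine alone Cxcl9 was at 7.00 and 6.56 and Ifgga2l1 at 7.17 and 6.92, under every combination rat.

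The macrophage and cell cycle lists had departure medians of -0.02 and 0.06. Of the 28 macrophage genes 1 departed positively and 2 negatively, and of the 31 cell cycle genes 3 and 2. Over all genes 14.3% departed positively and 19.8% negatively. Their medians with galactosamine alone were 1.54 and 0.93, against 1.44 and 1.06 on top of nevirapine. Cd14 is an exception, with a departure of 2.52 (limma adjusted p = 8.9e-07), since galactosamine alone lowered it to 7.92 and 8.40 from 10.19, 10.00 and 10.41 in vehicle.

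The largest negative departures were in genes that galactosamine alone raised. Ranking by this subtraction favours such genes, since galactosamine minus vehicle had the wider spread over genes (SD 0.601 against 0.364). With galactosamine alone Lama5, a laminin chain, rose to 9.98 and 9.97 from 4.85, 4.87 and 5.06 in vehicle, a difference of 5.05 ± 0.38, and in combination minus nevirapine it differed by 0.39. Its departure was -4.66 ± 0.51 (limma adjusted p = 1.07e-08). Srxn1, which repairs oxidised peroxiredoxins, was at 11.60 and 11.41 with galactosamine alone against 6.63, 6.82 and 6.63, with a departure of -4.41 ± 0.63. Wnt4, a secreted growth signal, had the largest, -5.56 ± 0.68 (limma adjusted p = 1.01e-07), from 9.22 and 8.73 with galactosamine alone. Tubb6 had -3.55 ± 0.33 and Pvr, the poliovirus receptor, -3.40. Micall2 was called too (limma adjusted p = 1.18e-08), with 3 of its 4 group means under background.

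Among the lists, of 15 p53 targets 9 rose with galactosamine alone (median 0.80) and 6 departed negatively, with Phlda3 at -3.15 and Cdkn1a at -2.94; Mdm2, the p53 ubiquitin ligase, had -0.55 and did not pass (limma adjusted p = 0.211). Cdkn1a and Mdm2 were picked after their values were seen. Of 28 ribosome biogenesis genes 19 rose with galactosamine alone (median 0.73) and 16 departed negatively. Over all genes tested 24.9% rose with galactosamine alone and 19.8% departed negatively. For 21 cytoskeletal genes the counts were 15 and 7, among the latter Anxa2 (-2.10), for 23 NRF2 targets 11 and 8, and for 26 ATF4 and ER stress genes 8 and 8, of these 5 lists the last was nearest to the shares over all genes. Krt18 departed by -1.93, and so did Ptger3, by -1.70, which galactosamine alone left at 7.80 and 7.57 (0.18, limma adjusted p = 0.666).

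The 6 largest positive departures were in genes that galactosamine alone lowered, which the same ranking favours. Spink1l, a Kazal-type protease inhibitor, fell to 7.62 and 6.90 from 11.22, 10.97 and 11.08 with galactosamine alone, and its departure was 3.51 ± 0.71 (limma adjusted p = 0.000243). Rgs16, a regulator of G protein signalling, had 2.95, Mug1, a plasma protease inhibitor, 2.73 and Cd14, as above, 2.52. Mmd2, which is not among these 6, had 1.92. The others of the 6, Inmt, a methyltransferase, and Spink1, were called (limma adjusted p = 0.000947 and 5.27e-05) with a group mean under background. Of 28 other cytochrome P450 genes 14 fell with galactosamine alone (median -0.42) and 9 departed positively, and for 22 bile acid genes the counts were 9 and 6. Over all genes 14.5% fell with galactosamine alone and 14.3% departed positively.

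**Figure D5:**
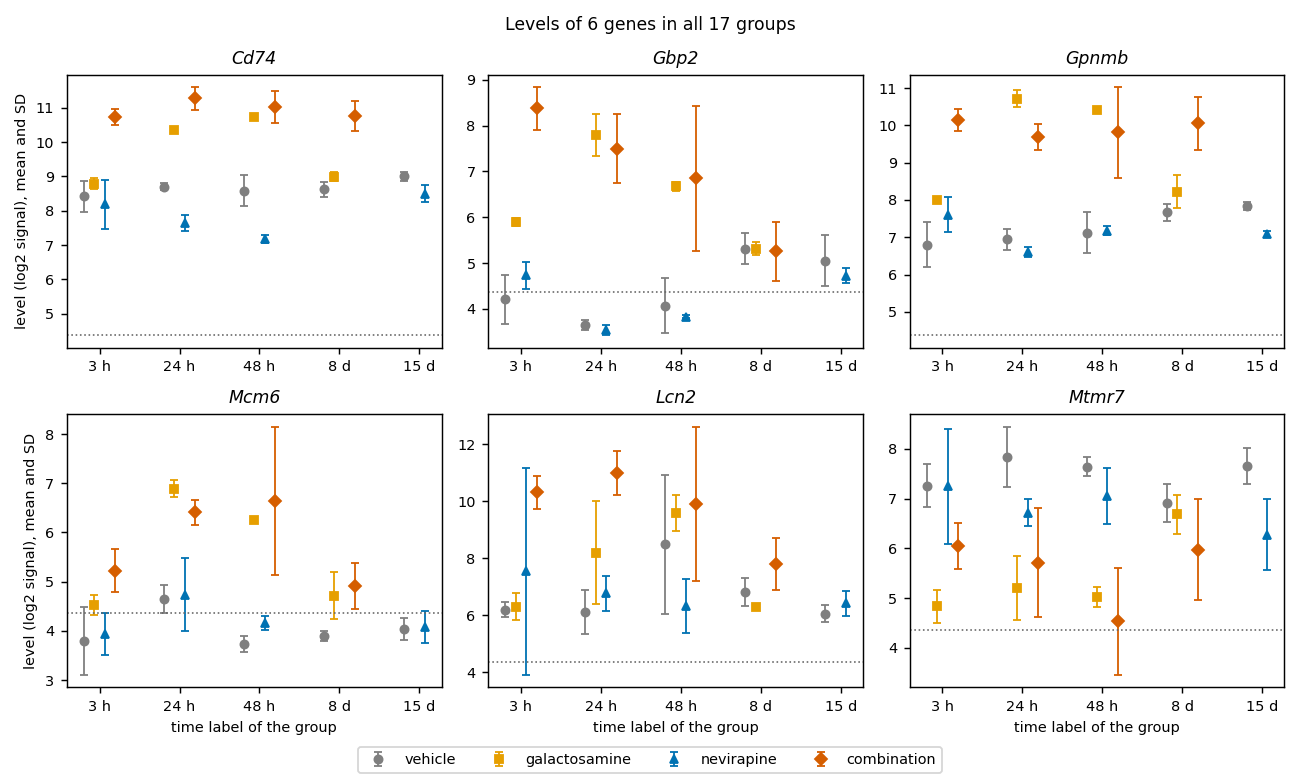
Mean level (log2 signal, vertical axes, with SD; 2 or 3 rats a group) of 6 genes in all 17 groups by the time label of the group (horizontal axes); colours and symbols stand for the treatment, and the dotted line is the background level of 4.37. In Cd74 the combination groups lie over the nevirapine groups at every shared time label, from 3 h to 48 h, and Gbp2 falls over time in the combination to 5.26 at 8 d.

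Over the whole series the 48 h contrast is one of several time labels, and the combination groups were high from 3 h on for Cd74 (10.74, 11.27, 11.02 and 10.77 at 3 h, 24 h, 48 h and 8 d). Galactosamine alone reached 8.79, 10.34, 10.72 and 9.00 at the same labels, and nevirapine alone 8.19, 7.65 and 7.18 at 3 h, 24 h and 48 h and 8.50 at 15 d. The combination rats at 3 h had already had 7 d of nevirapine. Gpnmb was likewise at 10.15 at 3 h in the combination and at 8.00 with galactosamine alone. Mcm6 was highest at 48 h in the combination (6.64) and at 24 h with galactosamine alone (6.89), with wide spread in the former. Mtmr7 was lowest in the combination at 48 h (4.54) and at 3 h with galactosamine alone (4.83).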

How the data were processed

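Liver RNA of 50 rats was measured on Affymetrix arrays with 31099 probe sets, 1 array a rat. The authors deposited log2 probe set signals, made with RMA and analysed with limma per the submitters' processing notes (versions not given in the sources used here); RMA had already been applied to all values used. Of the probe sets, 20826 carry 1 gene symbol in the platform annotation, 436 carry several, 9780 carry none (57 control probe sets lie outside these classes), and only those with 1 symbol were used. They gave 14217 genes (the probe set with the highest mean for the 4525 genes with several), of which 14167 matched a current RefSeq gene.

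Means of all 17 groups were fitted with limma 3.58.1 in R 4.3.3, with Benjamini-Hochberg adjustment over all genes, and contrasts were taken from that fit; tables and figures were made in Python 3.11.15 (pandas 2.3.3, numpy 2.4.6, matplotlib 3.10.9). On simulated data the comparison of the combination with nevirapine recovered 63% of 100 genes changed 1.5-fold and 94% of 100 changed 2-fold, with 6 unchanged genes called. The departure recovered 23% and 70%, with 2. The simulation gave each gene 1 spread in all groups. The real combination rats varied more (median SD 0.181 against 0.117 with nevirapine), so these rates need not hold for the real arrays. The background level was set after the data were seen. The genes compared and the gene lists were chosen with earlier results of these data known. Genes named are those with the 15 highest and 15 lowest differences, provided that they were called and the 2 groups of rats did not overlap (no LOC or RGD symbols), up to 4 members of each list by size, the 6 largest departures in each direction and the defining cell markers, plus those marked as picked later. Promoters came from RefSeq (GRCr8; 11700 genes, the 782 with several entries by their first). Alternatives were a fit of only the groups compared, trend and robust variance, no dim genes, the mean or each of the probe sets, cyclic loess, array weights, the GAPDH covariate and leaving out each rat. The labels carry no dates, so batches were not examined.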

Additional observations from a re-analysis of the deposited data

Results flagged for a closer look

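The departure from additivity, the difference of combination minus nevirapine less that of galactosamine minus vehicle at 48 h, tests whether the same injection went with different changes in the presence and absence of nevirapine. It passed the limma test for 4837 genes. The combination rats had also had more days of nevirapine than the nevirapine rats, and 2 galactosamine rats stand for galactosamine alone, so the departure cannot be told apart from the effect of dosing time.

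Positive departures in the MHC class II genes were 1.71 for Cd74, 1.80 for RT1-Db1, 1.48 for RT1-Bb and 0.96 for RT1-Ba (log2). Among myeloid and interferon-linked genes they were 1.39 for Slfn4, 1.92 for Ifgga2l1 and 1.30 for Cxcl9. The calls of Slfn4, Ifgga2l1, Cxcl9 and RT1-Ba were lost when certain single rats were left out, as given above. Another probe set for Slfn4 differed by only 0.11 in combination minus nevirapine (limma adjusted p = 0.646). Genes that galactosamine alone lowered departed by 3.51 (Spink1l), 2.95 (Rgs16), 2.73 (Mug1), 2.52 (Cd14) and 1.92 (Mmd2). Inmt and Spink1 passed with limma adjusted p = 0.000947 and 5.27e-05, with a group under background and therefore no size.

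Negative departures were -5.56 for Wnt4, -4.66 for Lama5, -4.41 for Srxn1, -3.55 for Tubb6, -3.40 for Pvr, -3.15 for Phlda3, -2.94 for Cdkn1a, -2.10 for Anxa2, -1.93 for Krt18 and -1.70 for Ptger3. Micall2 passed with limma adjusted p = 1.18e-08, likewise with groups under background. Of these genes, Ptger3 alone did not pass the test with galactosamine alone against vehicle.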

How the results depend on the processing

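Counts of called genes were recomputed under each alternative; those for contrasts against vehicle, for single departures and for lists were added after seeing the data. Fits of only the groups compared gave 271 genes higher and 262 lower for combination against nevirapine, 2733 against nevirapine at 15 d, 3379 for nevirapine at 15 d against 48 h, and 374 for combination against vehicle. Leaving out the dimmest 40% gave 668 higher. Array weights gave 4671 for nevirapine at 15 d against 48 h and 4652 for nevirapine against vehicle. With each rat left out in turn, the counts ran from 854 to 1346 higher and 520 to 1182 lower, 3207 to 5479 for the departure, 3107 to 3670 against nevirapine at 15 d, 1162 to 1460 for nevirapine at 15 d against 48 h, and against vehicle 1104 to 2380 for the combination (lowest without rat70; 1402 without rat12), 1359 to 2094 for nevirapine (lowest without rat12; 1534 without rat40) and 3708 to 5322 for galactosamine. The other settings kept every count within 1.5 times. Testing each probe set on its own called 2015 of 20826 higher and 1439 lower.

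Of the 131 named genes, the sign of the difference turned in these cases, and their causes were not tested. With nevirapine at 15 d as reference it was -0.059 for Srxn1, 0.71 for Spink1l, 0.91 for Spink1, -0.64 for Rgs16, -1.38 for Mug1, -0.00 for Cd14, 0.23 for Abcg8, 0.21 for Cyp3a18, 0.077 for Srebf1, -0.013 for Alb, -0.33 for Ms4a1, -0.30 for Cpa3 and 0.11 for Bckdha. With each rat left out in turn the difference ran from -0.01 (without rat70) to 0.95 (without rat72) for Pvr, from -0.71 (rat71) to 0.46 (rat70) for Spink1l, from -0.49 (rat71) to 0.30 (rat70) for Spink1, from -0.47 (rat72) to 0.74 (rat70) for Rgs16, from -0.0053 (rat42) to 0.0065 (rat40) for Alb, from -0.24 (rat72) to 0.12 (rat71) for Lyve1, from -0.33 (rat70) to 0.51 (rat72) for Epcam, from -0.025 (rat72) to 0.89 (rat70) for S100a9 and from -0.815 (rat70) to 0.45 (rat72) for Cdkn1a. The mean of all probe sets gave 0.16 for Spink1, 0.0001 for Lyve1 and 0.078 for Cdkn1a, array weights 0.049 for Spink1l and 0.034 for Spink1, and loess -0.074 for Alb. None of the genes in this paragraph but Abcg8, Cyp3a18, Srebf1 and Bckdha had been called. In the fit of only the 6 arrays 47 of the named genes lost their call. That fit gives the same differences and changes only their spread, so no sign could turn in it.

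No paired analysis was possible because rat numbers are not shared between groups. Signal over background limits the sizes that can be given: 268 of the genes called higher were under background in both groups.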
